A study of Clarias macrocephalus with 14 samples.

Results

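The comparison described here set whole fry of Clarias macrocephalus, the broadhead catfish, at 16 days post fertilization (dpf) against fry at 14 dpf. It was chosen by age label, as the 2 libraries of 16 dpf against the 2 libraries of 14 dpf. These are 4 of the 14 libraries in a series that covers 7 ages from 3 to 24 dpf. The choice was made with earlier results of these data known. The series profiled expression in early stages, as part of a search for genes that take part in air breathing. The broadhead catfish breathes air as well as water. Clariid catfishes carry an accessory organ above the gills for this, which forms during early life, while the young fish also turn from yolk to outside food.

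The 16 dpf group was 2 libraries of total RNA from whole bodies at 16 dpf, and the 14 dpf group was 2 libraries made in the same way at 14 dpf. The labels record the sex of the fry as unknown and give no treatment, strain or genotype for either group. They do not say how many fry went into a library, or whether a replicate was its own pool, tank or spawn. The p-values rest on the spread between libraries of the same age, estimated from all 14 libraries in the fit. They therefore cover no more than that spread, and between the libraries of 16 or of 14 dpf it may be technical. A whole fry mixes every tissue, and a lower level from fewer cells of a type cannot be told apart from less RNA per cell.

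Expected read counts, which RSEM estimates by sharing reads among similar transcripts, were summed over the transcripts of a de novo assembly that carry the same all-digit Gene ID. The table has 166841 such transcripts under 23837 Gene IDs. Totals were 6402796 and 8837320 counts in replicates 1 and 2 of 16 dpf and 4784696 and 5282312 counts in those of 14 dpf, against 1460853 to 5509264 in the other 10 libraries. The files do not pair the IDs with gene names, so no gene, pathway or tissue is named. Instead, 4 Gene IDs stand for the largest changes among Gene IDs that passed bounds on level and counts, given below. Levels are given in CPM, counts per 1e+06 after TMM scaling, which corrects library size for differences in composition. TMM factors were 1.22 to 1.33 in the 4 libraries and 0.391 to 1.41 in the others.

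The replicates of each of the 2 ages were closer to each other than those of any other age. The coefficient of variation between replicates beyond counting noise, over Gene IDs with at least 50 counts in the pair, was 2.77% at 16 dpf and 3.13% at 14 dpf, against 8.42 to 18.5% at the other 5 ages. A chi-square test of the counts called 7.84% of Gene IDs different between the replicates of 16 dpf and 7.34% between those of 14 dpf at p under 0.05, where counting noise alone gives about 5%. Each pair therefore differed by slightly more than counting noise. This does not show that the libraries of a pair are separate biological samples. Keeping each pair as 2 samples is thus an assumption. A fit with each pair summed to 1 sample is given beside the main counts.

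By level, 16 and 14 dpf were the most alike of the 21 pairs of ages, although both 13 and 14 dpf and 16 and 17 dpf lie closer in time. Pearson's r of log2(CPM + 1) across Gene IDs was 0.923 to 0.927 between a 16 dpf library and a 14 dpf library, against 0.689 to 0.893 between libraries of any other 2 ages. Among the 10826 Gene IDs with a mean of at least 10 CPM it was 0.875 to 0.883, against 0.526 to 0.849. These values are across genes, which are not independent replicates, and are given with no test. The comparison was chosen with earlier results known, so its place in this order is not an independent finding. The 16 dpf libraries were the deepest and both ages had the closest replicates, and the part of either in this order was not tested. The median absolute log2 fold change over Gene IDs was 0.388, also the smallest of the 21 pairs, with 0.465 to 1.06 in the others.

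**Figure D1:**
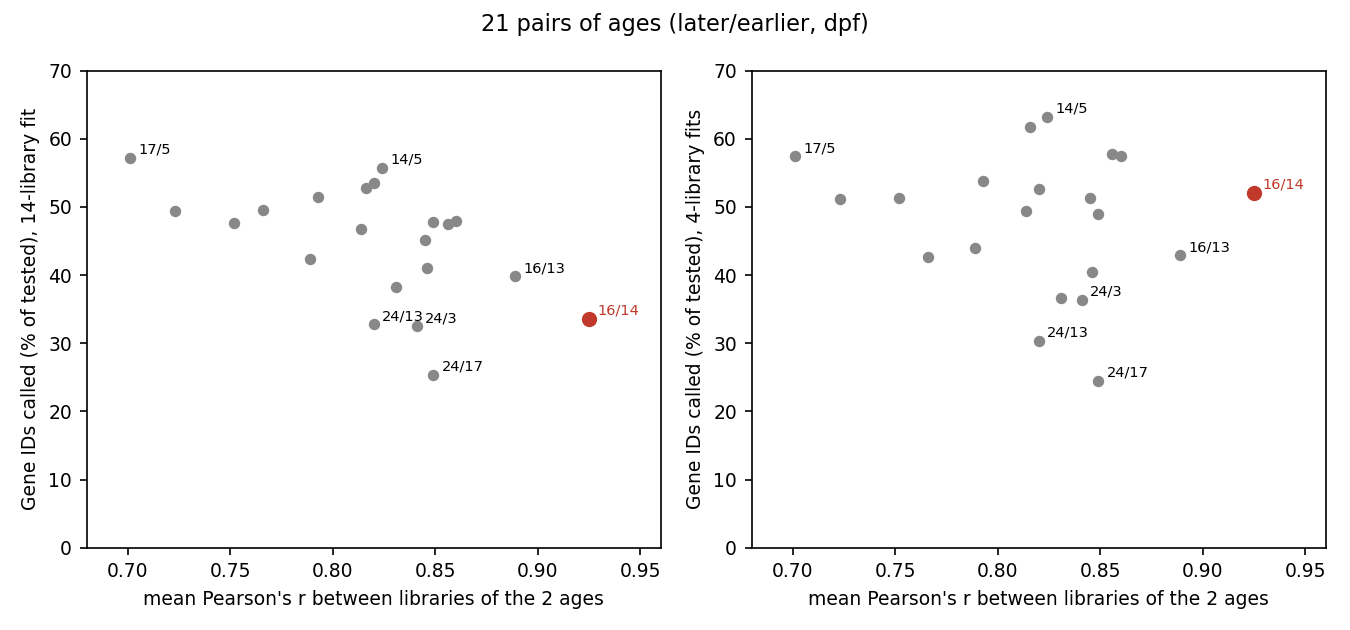
Each point is a pair of ages (selected pairs labelled as later/earlier dpf), with the mean Pearson's r between their libraries on the x axis and the percent of tested Gene IDs called on the y axis, in the fit of all 14 libraries (left) and in fits of the 4 libraries of each pair alone (right). The pair of 16 and 14 dpf has the highest r, 0.925, with 33.6% called on the left and 52.1% on the right.

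The count of changed Gene IDs placed the pair differently. Of 18644 Gene IDs that passed the low-count filter, 6257 (33.6%) differed between 16 and 14 dpf in edgeR's quasi-likelihood test with all 14 libraries in the fit (Benjamini-Hochberg adjusted p under 0.05, 2 libraries against 2). That was the 4th smallest count of the 21 pairs, after 4733 for 24 against 17 dpf, 6059 for 24 against 3 dpf and 6119 for 24 against 13 dpf. When each pair of ages was fitted alone, 16 against 14 dpf had 9619 calls of 18467 (52.1%) and stood 14th by the percent called. The 24 dpf libraries were the shallowest of the series, the 16 dpf libraries the deepest, and the part of depth in this order was not tested. The spread used also differed between the fits. The coefficient of variation in the fit of all 14 libraries was 10.2% over the tested Gene IDs, far above the 2.77% and 3.13% between the replicates of 16 and 14 dpf. Its part in the order was not tested either. All 6206 of the main calls that were tested in the fit of the 4 libraries alone were called again, and they made up 64.5% of the 9619.

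Of the 6257 changed Gene IDs, 3329 (17.9% of those tested) were higher and 2928 (15.7%) were lower at 16 dpf. Changes were mostly modest. The median log2 fold change was 0.85 among the higher and -0.76 among the lower, and 2169 (11.6%) changed by at least 2-fold, 1238 (6.64%) rising and 931 (4.99%) falling. In every called Gene ID, both libraries of 16 dpf lay on the same side of both libraries of 14 dpf, which also held for 74% of all tested Gene IDs (36.8% higher and 37.2% lower). The call count rests on both replicates of each age. Leaving out replicate 1 of 16 dpf gave 3924 calls and leaving out its replicate 2 gave 3336. Leaving out replicate 1 of 14 dpf gave 3556 and leaving out its replicate 2 gave 3624. With each pair summed to 1 sample, 2150 were called. With all 14 libraries in the fit, the split of directions was close to even. Of the changed Gene IDs, 53.2% were higher at 16 dpf by TMM scaling and 49.3% by upper-quartile scaling. The split leaned further to rises in each fit with a library left out and in the fit with each pair summed.

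**Figure D2:**
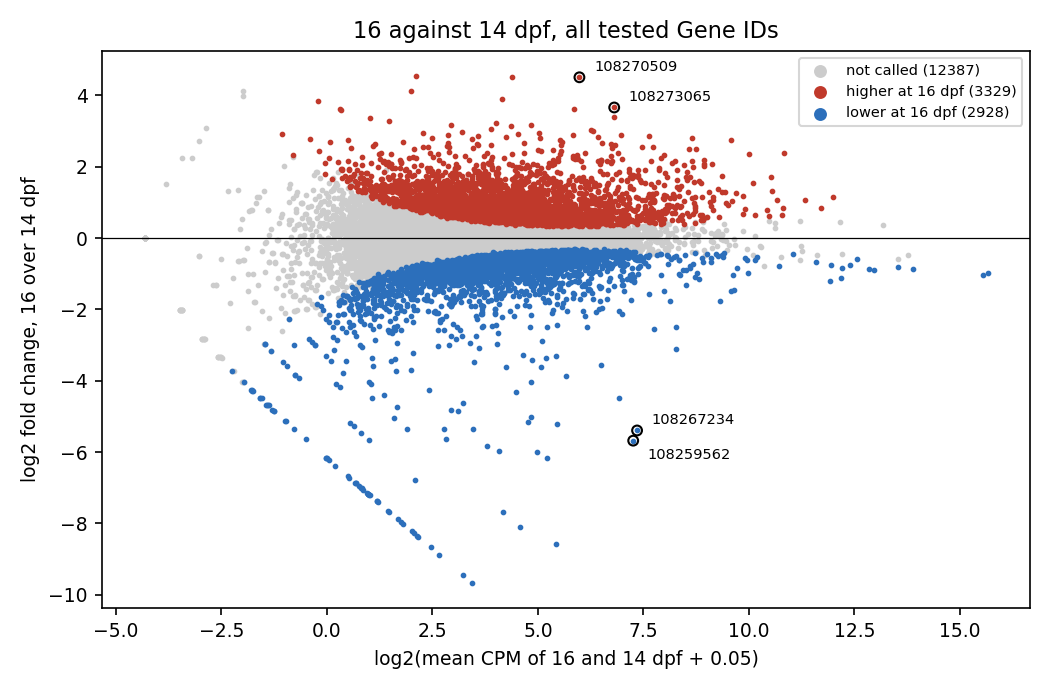
Each point is a tested Gene ID, with its log2 fold change of 16 over 14 dpf against its mean level at the 2 ages, log2(CPM + 0.05). Red points were called higher at 16 dpf (3329), blue points lower (2928) and grey points were not called (12387); the 4 named Gene IDs are circled, and the diagonal line of blue points at the lower left holds Gene IDs with 0 or few counts at 16 dpf, whose fitted fold depends on the prior count.

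Large rises and large falls were unequal in number. At a fitted change of at least 4-fold, 174 Gene IDs were higher and 244 lower at 16 dpf, at 8-fold 20 and 125, and at 16-fold 4 and 91. Most of the deepest falls were losses of nearly all counts. Of the 91 Gene IDs at least 16-fold lower, 62 had fewer than 3 counts over both 16 dpf libraries, so their fitted folds are not measured sizes. The same held for 72 of the 244 at least 4-fold lower and 69 of the 125 at least 8-fold lower. Among the rises, 6 of the 174 and 3 of the 20 had fewer than 3 counts over both 14 dpf libraries. The unequal numbers thus rest in part on Gene IDs with nearly no counts at 16 dpf. Without the Gene IDs under 3 counts, falls still outnumbered rises at 8-fold and at 16-fold, while at 4-fold the numbers were close. By counts alone, 18830 Gene IDs had at least 20 counts at either age. Among them, 7 had at least 20 counts at 16 dpf and fewer than 3 at 14 dpf, and 64 had the reverse. Of those 64, 59 had at least 3 counts at 13 dpf and 26 had at least 20 there. None had 20 or more at 3 or 17 dpf, and 15 did at 5 dpf and 1 at 24 dpf. These bounds are raw counts, and all libraries of 3, 13, 17 and 24 dpf had smaller totals than those of 14 dpf. Fewer counts at those ages are therefore not in themselves a lower level, and the part of depth was not tested.

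The 4 named Gene IDs were the largest rises and falls among Gene IDs whose mean reached 50 CPM at the age with more and whose 2 libraries at the age with less each had 10 counts or more, so that their folds rest on counts at both ages. In all, 853 Gene IDs that rose and 656 that fell were eligible. The median absolute log2 fold change among these was 0.79 for the rises and 0.62 for the falls.

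Gene ID 108270509 had the largest rise of the eligible Gene IDs. It had 119 and 124 CPM at 16 dpf (1007 and 1439 counts), against 4.61 and 5.97 CPM at 14 dpf (27 and 38 counts). All of these counts were on a single transcript. The groups lay far apart, and the log2 fold change was 4.51 ± 0.21 (SE), a 22.7-fold rise (edgeR, adjusted p = 1.36e-11). The high level was short. The 3 dpf libraries had 0 counts, the 5 dpf libraries 4 and 14 counts, the 13 dpf libraries 18.5 and 15.7 CPM, the 17 dpf libraries 7 and 4 counts, and the 24 dpf libraries 0 counts. Its 16 dpf libraries were thus above all other 12 libraries, and its 14 dpf libraries were below those of 13 dpf.

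Gene ID 108273065 also rose. It had 206 and 210 CPM at 16 dpf, against 14.9 and 17.9 CPM at 14 dpf. The means were 208 ± 2.79 CPM at 16 dpf and 16.4 ± 2.17 CPM at 14 dpf (SD, n = 2 each), and the log2 fold change was 3.66 ± 0.25 (SE), a 12.6-fold rise (edgeR, adjusted p = 2.86e-10). It too was lower at 14 than at 13 dpf, and no other library reached the 16 dpf level. The 3 dpf libraries had 35 and 27.2 CPM, the 5 dpf libraries 68.1 and 63.2 CPM, and the 13 dpf libraries 44.6 and 101 CPM. The 17 dpf libraries had 8.58 and 4.19 CPM, and those of 24 dpf 12.2 and 5.51 CPM. Of its 12 transcripts, a pair held 55.8% and 41.7% of its counts at 16 and 14 dpf, and both of those were called higher at 16 dpf.

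Gene ID 108259562 had the largest fall of the eligible Gene IDs. It had 6.12 and 5.6 CPM at 16 dpf (52 and 65 counts), against 301 and 300 CPM at 14 dpf (1762 and 1908 counts). The log2 fold change was -5.68 ± 0.67 (SE), a 51.2-fold fall (edgeR, adjusted p = 8.6e-07), with all counts on 1 of its 2 transcripts. The low level at 16 dpf was close to that at most other ages, which had 2.07 to 3.15 CPM at 3 and 5 dpf and 4.07 to 7.32 CPM at 17 and 24 dpf. At 13 dpf the replicates disagreed widely, with 90.9 CPM in replicate 1 and 1160 CPM in replicate 2. High levels of this Gene ID were thus seen at 13 and 14 dpf among the 7 ages.

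Gene ID 108267234 fell to 7.53 and 7.58 CPM at 16 dpf, against 299 and 338 CPM at 14 dpf. The means were 7.56 ± 0.0317 CPM at 16 dpf and 319 ± 27.8 CPM at 14 dpf (SD, n = 2 each), with a log2 fold change of -5.39 ± 0.49 (SE), a 42-fold fall (edgeR, adjusted p = 1.87e-08). The fall was carried by 1 of its 15 transcripts. TRINITY_DN156595_c5_g1_i1 had 0 and 2 counts at 16 dpf, against 292 and 331 CPM at 14 dpf, and held 94.1% of the counts of this Gene ID over the 4 libraries. The only other transcript with counts at these ages, TRINITY_DN149602_c1_g1_i22, had 7.53 and 7.41 CPM at 16 dpf and 7.17 and 7.23 CPM at 14 dpf. It was not called (adjusted p = 0.99).

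Without the first transcript the Gene ID had a log2 fold change of 0.04 (edgeR, adjusted p = 0.933), so the call is that of a single transcript. At 13 dpf this transcript had 57.4 CPM in replicate 1 and 306 CPM in replicate 2, and at 3, 5, 17 and 24 dpf it had 0 counts. At 5 dpf the Gene ID stood at 691 and 1050 CPM on other transcripts, 8 of which had over 10 CPM in both 5 dpf libraries and under 1 CPM in every library from 13 to 24 dpf. The level summed over a Gene ID thus came from different transcripts at 5 and at 14 dpf.

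**Figure D3:**
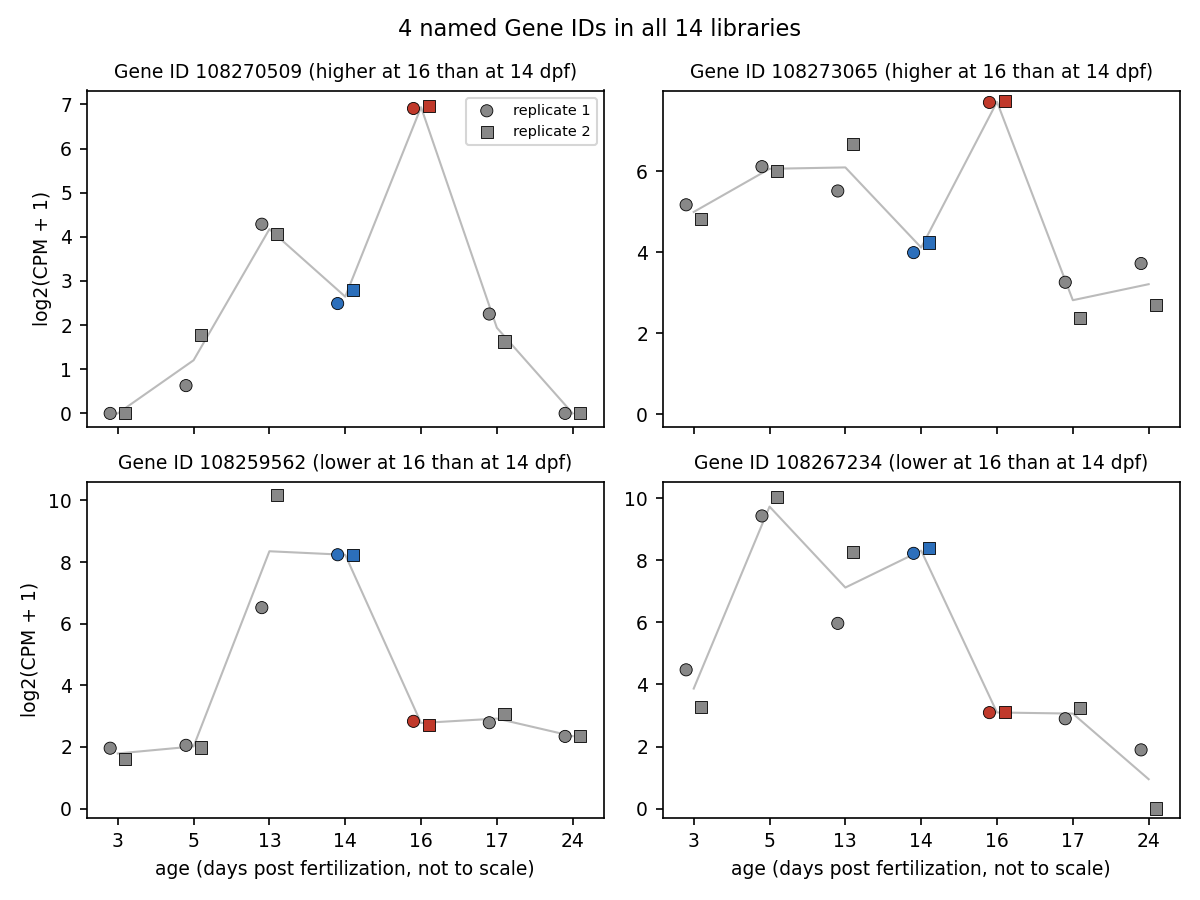
Levels of the 4 named Gene IDs in all 14 libraries, as log2(CPM + 1) by age in dpf; circles are replicate 1, squares replicate 2, and grey lines join the means. Red marks 16 dpf and blue 14 dpf: in the upper panels the 16 dpf points are the highest of the 14 libraries, and in the lower panels the 14 dpf points are far above the 16 dpf points, while the 13 dpf replicates lie apart.

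The other ages showed on which side of the change the level was unusual. Among the 3329 Gene IDs higher at 16 dpf, 686 (20.6%) had their highest mean of the 7 ages at 16 dpf, and 1496 (44.9%) had their lowest mean at 14 dpf. Among the 2928 lower at 16 dpf, 339 (11.6%) had their lowest mean at 16 dpf, and 1417 (48.4%) had their highest at 14 dpf. Over all tested Gene IDs, 8.32% had their highest and 5.01% their lowest mean at 16 dpf, and 16.1% and 14.6% at 14 dpf. Being called in itself makes an extreme at either age more frequent, and the difference between the ages was not tested. The extreme was at 16 dpf for 16.4% and at 14 dpf for 46.6% of all changed Gene IDs, and with the 4 libraries thinned to the same depth it was 17.8% and 47.7%.

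The larger rises and the larger falls differed in part in which age stood apart. All were picked by their change between 14 and 16 dpf, which in itself sets these ages apart and favours an extreme at each. The place of the other ages between or beyond them is described with no test. Over the 1238 Gene IDs at least 2-fold higher at 16 dpf, the median level was 19.5 CPM in each 16 dpf library and 7 and 7.07 CPM in the 14 dpf libraries. It was 12.7 to 15.6 CPM in the libraries of 3, 5 and 13 dpf and 9.16 to 10.9 CPM in those of 17 and 24 dpf, so the 14 dpf libraries lay below all others and the 16 dpf libraries above. Over the 174 Gene IDs at least 4-fold higher at 16 dpf, it was 30.5 and 31.4 CPM in the 16 dpf libraries and 5.29 and 5.5 CPM in the 14 dpf libraries. The 16 dpf libraries stood above all others, which reached at most 17.4 CPM, while the 14 dpf libraries lay above those of 17 and 24 dpf, at 4.13 to 4.75 CPM. Over the 931 Gene IDs that fell by at least 2-fold, it was 3.3 and 3.1 CPM in the 16 dpf libraries and 9.73 and 9.43 CPM in the 14 dpf libraries. In the other 10 libraries it was 2.71 to 6.28 CPM, so the 14 dpf libraries lay above all others. The 16 dpf libraries lay below all others but those of 24 dpf, at 2.71 and 2.76 CPM. Over the 244 Gene IDs at least 4-fold lower, the 16 dpf libraries, at 0.471 and 0.431 CPM, lay below all others but replicate 2 of 24 dpf, at 0 CPM. The 14 dpf libraries were the highest, at 4.69 and 4.95 CPM, followed by replicate 2 of 13 dpf, at 4.24 CPM.

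**Figure D4:**
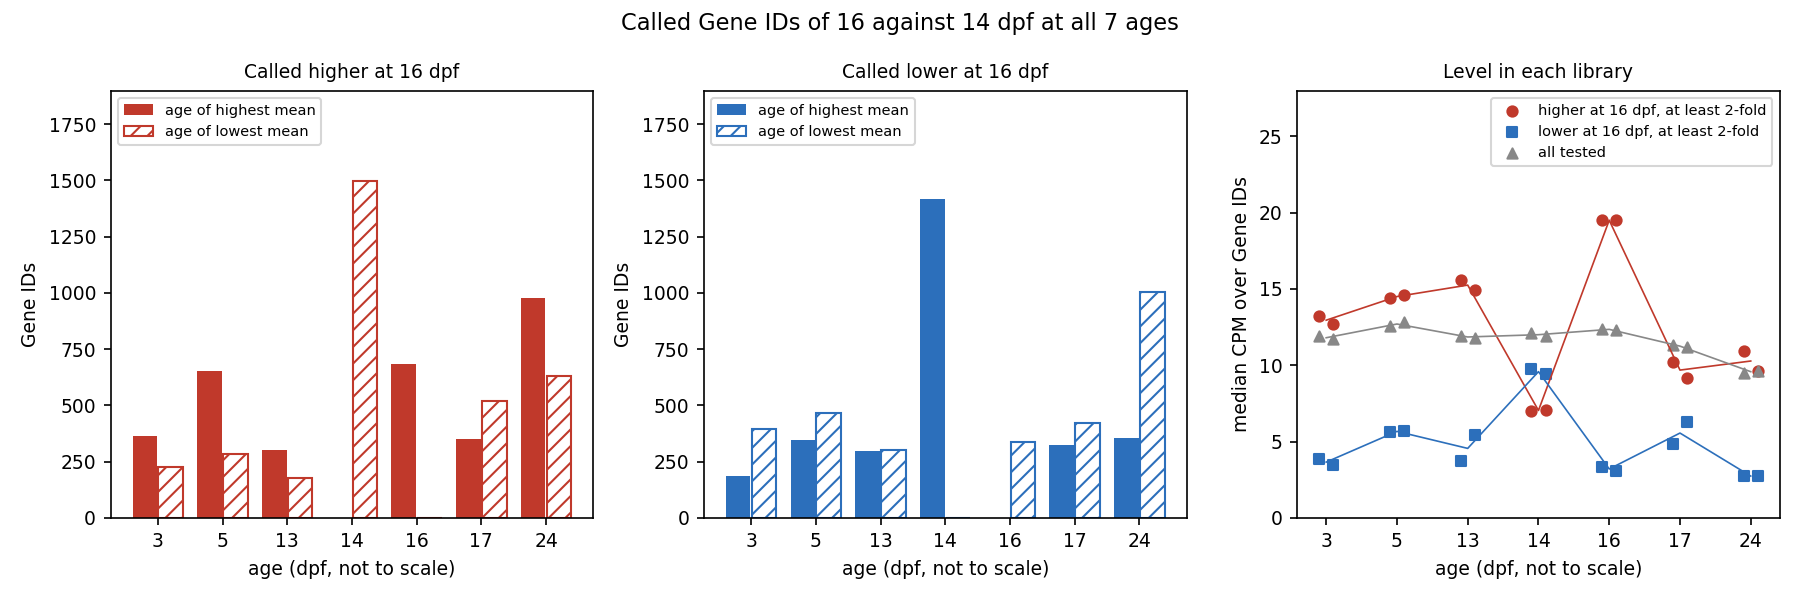
Left and centre, the number of Gene IDs called higher or lower at 16 than at 14 dpf by the age of their highest mean (filled bars) and lowest mean (hatched bars). Right, the median CPM in each library over Gene IDs changed by at least 2-fold and over all tested; the 14 dpf bars of 1496 and 1417 are the tallest of the left and centre panels.

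Levels at the other ages were more often nearer to those of 16 dpf. Of the 6257 changed Gene IDs, 61.3 to 67.1% had a mean at each of 3, 5, 13, 17 and 24 dpf that was nearer to their 16 dpf than to their 14 dpf mean, against 57.2 to 59.9% of all tested Gene IDs. At 13 dpf, a single day before 14 dpf, 4131 (66%) were nearer to 16 dpf and 2126 (34%) nearer to 14 dpf. Across all Gene IDs, r with the 13 dpf libraries was 0.886 to 0.893 for 16 dpf and 0.84 to 0.86 for 14 dpf. Among the 10826 Gene IDs with a mean of at least 10 CPM, where depth matters less, it was 0.814 to 0.817 for 16 dpf and 0.733 to 0.769 for 14 dpf.

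Between 13 and 17 dpf, changed Gene IDs kept the direction of 16 against 14 dpf about as often as all tested ones. These ages flank the interval and do not show what followed 16 dpf. Their 4 libraries were not part of the contrast of 16 against 14 dpf. In 17 against 13 dpf, 3178 of the 6257 changed Gene IDs (50.8%) moved in the same direction, against 50.6% of all tested. In that comparison 9250 Gene IDs (49.6%) were called, 26% higher and 23.7% lower at 17 dpf, and 3700 of the 6257 (59.1%). Of those 3700, 1793 went the same way as between 14 and 16 dpf and 1907 the opposite way. Among the Gene IDs at least 2-fold higher at 16 than at 14 dpf, 793 were called between 17 and 13 dpf, and 499 of these (62.9%) were lower at 17 dpf. Among those that fell by at least 2-fold, 516 were called between 17 and 13 dpf, and 285 of these (55.2%) were higher at 17 dpf. Over all calls between 17 and 13 dpf, 52.3% were higher and 47.7% lower at 17 dpf. The 20 most abundant Gene IDs held 61% and 60.3% of the counts in replicates 1 and 2 of 17 dpf. The part of this in the directions was not tested.

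Gene IDs were also sorted by the age of their highest mean among the 5 ages outside the contrast. Those that peaked at 24 dpf among these were called higher at 16 dpf most often, with 1015 of 3788 higher (26.8%) and 464 lower (12.2%). Those that peaked at 17 dpf leaned the other way, with 461 of 3889 higher (11.9%) and 616 lower (15.8%), as did those that peaked at 13 dpf, with 595 of 3578 higher (16.6%) and 757 lower (21.2%). Gene IDs that peaked at 3 or 5 dpf stood near the overall shares of 17.9% and 15.7%, with 16.5% and 17.3% higher and 14.7% and 14.8% lower. The difference among these classes was not tested.

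The 13 dpf replicates differed most in the Gene IDs that fell furthest. Of the 244 Gene IDs that fell by at least 4-fold, 121 (49.6%) were at least 2-fold higher in replicate 2 than in replicate 1 of 13 dpf on the log2(CPM + 1) scale, and 4 were at least 2-fold lower. Over all tested Gene IDs the shares were 2.37% and 1.5%. The median level of the 244 was 0.471 and 0.431 CPM in the 16 dpf libraries, 4.69 and 4.95 CPM in the 14 dpf libraries, and 1.23 CPM in replicate 1 and 4.24 CPM in replicate 2 of 13 dpf. Replicate 2 of 13 dpf was thus close to 14 dpf for these Gene IDs, and replicate 1 lay between 14 and 16 dpf. What sets the 13 dpf libraries apart was not tested.

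The share of Gene IDs called higher grew with their level. Among Gene IDs with a mean of 1 to 3 CPM over the 14 libraries, 5.14% were higher and 11.9% lower at 16 dpf. At 30 to 100 CPM 28.7% were higher and 17.4% lower, and at 300 CPM or more 45.8% and 19.6% of 275 Gene IDs. The share called lower stayed between 11.9% and 19.6% in every class from 1 CPM up, and the median log2 fold change moved to 0.36 in the highest class, against -0.18 at 1 to 3 CPM. At 300 CPM or more, the shares were 46.1% higher and 22.3% lower with upper-quartile scaling. Precision also grows with level, so the totals called in these classes cannot be compared as sizes of change. The low-count filter asks for counts in only a few libraries, so a Gene ID with a low mean passes through the libraries where it is high. At 1 to 3 CPM 17% were called and 16.6% were called with a change of at least 2-fold. The lowest classes are therefore not like the others, and the part of the filter in the trend was not tested.

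**Figure D5:**
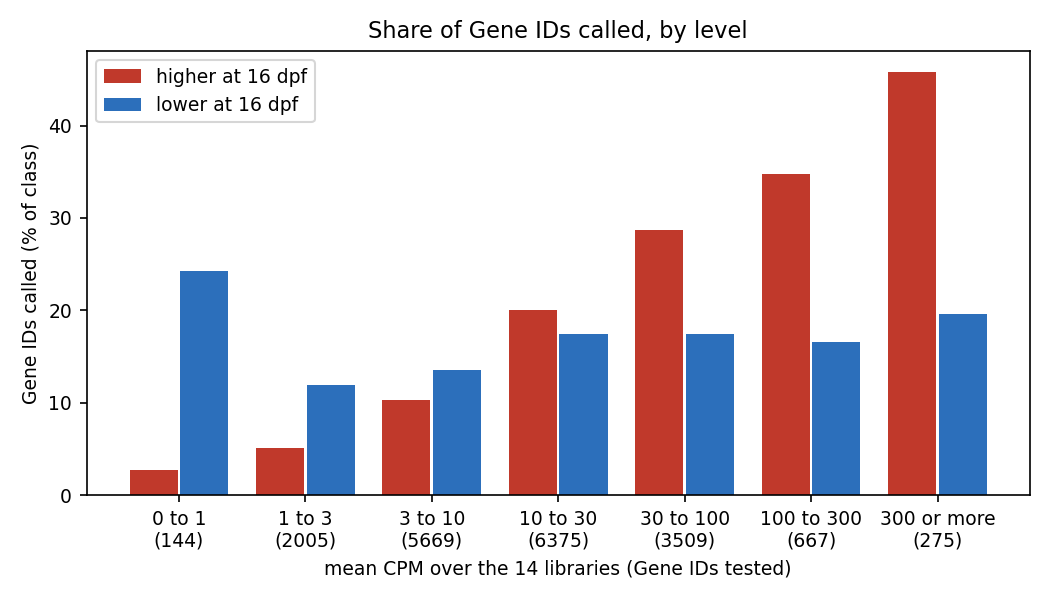
Percent of tested Gene IDs called higher (red) or lower (blue) at 16 than at 14 dpf, in classes of mean CPM over the 14 libraries, with the number tested under each class. The red bars grow from 2.78% to 45.8% across the classes, and the blue bars lie between 11.9% and 24.3%. In the lowest classes Gene IDs passed the low-count filter through the libraries where they were high.

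The most abundant Gene IDs did not follow this trend. The 20 highest Gene IDs of 14 dpf held 21.8% and 21.9% of the counts of the 16 dpf libraries, against 34.4% and 34.8% of those of the 14 dpf libraries. Of these 20, 13 were called lower and none higher at 16 dpf, with log2 fold changes of -1.21 to 0.45. The 20 highest of 16 dpf shared 16 members with them, and 4 of the 20 were called higher and 11 lower. Picking Gene IDs by their level at 1 of the 2 ages in itself favours a higher level at that age. Over the 24 Gene IDs in either list, 4 were called higher and 13 lower. Leaving out the 20 Gene IDs with the highest totals over all libraries gave 6327 changed Gene IDs.

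Some Gene IDs had transcripts that changed in different directions. Tested one by one, 11541 of 42923 transcripts (26.9%) passed the same test, and of these 5986 (13.9% of those tested) had more at 16 dpf and 5555 (12.9%) had less. Among 2140 Gene IDs with at least 2 called transcripts, 1301 had them all in the same direction and 839 (39.2%) had at least 1 called higher and 1 called lower. Those 839 were 9.55% of the 8785 Gene IDs with at least 2 tested transcripts. For 428 of these 839 the summed Gene ID was not called, while 337 sums were higher and 74 lower. With a minimum of 50 counts per transcript over the 4 libraries, 628 of 1857 (33.8%) had opposite calls. RSEM divides reads among similar transcripts, and its division between near-identical copies is uncertain.

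The leading transcript also changed more often between the ages than between replicates. It was compared in 10315 Gene IDs with several transcripts and at least 50 counts in each of the 4 libraries. Between a 16 dpf and a 14 dpf library 9.24 to 9.91% had a different transcript with the highest count, against 4.05% between the replicates of 16 dpf and 5.24% between those of 14 dpf. In 522 Gene IDs (5.06%) the leader was the same in both replicates of each age and different between the ages. Of these, 287 (55%) were not called as a sum, against 60.7% of all 10315, while 20.7% were higher and 24.3% lower at 16 dpf, against 20.3% and 19% of all 10315.

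A set of transcripts was seen at 13 and 14 dpf alone. It held 782 transcripts under 613 Gene IDs, each with at least 20 counts at both ages and fewer than 3 at every other, so its fall at 16 dpf follows from its definition. It had 8 and 9 counts in the 16 dpf libraries, against 1.09% and 1.13% of the counts in the 14 dpf libraries. In replicates 1 and 2 of 13 dpf it held 0.285% and 2.11%. The bounds are raw counts, and the libraries of 3, 17 and 24 dpf had smaller totals than those of 14 dpf. The part of depth in the absence of the set at those ages was not tested. Of the 611 Gene IDs tested with a member, 185 (30.3%) were higher and 202 (33.1%) lower at 16 dpf, against 17.9% and 15.7% of all tested. The set made up a median of 15.5% of the 14 dpf counts of these Gene IDs.

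Leaving out transcripts with counts at 14 dpf and nearly none at 16 dpf raises the fold change of a sum by construction. With the set left out, of 588 Gene IDs still tested, 276 (46.9%) were higher and 89 (15.1%) lower, with a median log2 fold change of 0.35, while all 18621 Gene IDs of that fit had 18.5% higher, 16.2% lower and a median of -0.01. The rest of the 588 sums were not called. Whether reads moved between transcripts in the authors' estimation was not tested. Members have nearly no counts at 16 dpf by definition, which in itself favours deep falls of their Gene IDs. Of the 91 Gene IDs at least 16-fold lower at 16 dpf, 44 had a member of the set, against 611 of all 18644 tested. Of the 91, 51 were still called and at least 16-fold lower without the set. Over all Gene IDs, 3025 were called lower without it, against 2928 in the main fit.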

How the data were processed

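Whole-fry total RNA was depleted of ribosomal RNA and sequenced, per the labels' protocols. The authors deposited expected counts per transcript, with 2.24 to 5.56% of values not whole. Tools listed in the submitters' processing notes, in no stated order, are RSEM, DESeq2, FastQC, CASAVA 1.9.1 and Trimmomatic 0.36. The transcript IDs name the assembler, Trinity. Not given in the sources used here are its version, how Gene IDs were assigned, strand, filters and the build.

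Counts were summed per all-digit Gene ID and rounded. Transcripts with other Gene IDs (5672), which held 0.351 to 0.577% of counts in the 4 libraries, stayed out. edgeR 4.0.16 in R 4.3.3 was used (TMM, filterByExpr with a minimum count of 10, quasi-likelihood F test, all 14 libraries, age as the only term, Benjamini-Hochberg adjustment). SEs are the log2 fold change divided by the root of F. Tested Gene IDs held 99.6 to 99.9% of each library's all-digit counts. Depth and the spread of 2 replicates limit precision.

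The comparison, members and gene sets were chosen with earlier results of these data known. Without gene names, 17 gene lists and the cell type markers could not be tested, and the rule for named Gene IDs took 2 rises and 2 falls: adjusted p under 0.05, groups apart, at the age with more, a mean of 50 CPM or above, at the age with less, 10 counts or more per library, then the largest fold. Same-numbered replicates did not deviate together (correlation -0.0002 for 16 and 14 dpf). Alternatives were other scalings, tests (DESeq2 1.42.0, limma-voom 3.58.1), filters, units and library sets.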

Additional observations from a re-analysis of the deposited data

How the results depend on the processing

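Of 185 alternative values, 157 stayed in the same range or on the same side of the threshold, 26 moved and 2 changed direction. The share of changed Gene IDs that were higher at 16 dpf, 53.2%, was 49.3% with upper-quartile scaling. Gene ID 108267234 had a log2 fold change of 0.042 without the transcripts of 13 and 14 dpf alone, which include the transcript that carried its fall. The other 75 values of the named Gene IDs kept their direction and their call.

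Without each library of 16 or 14 dpf in turn, 3336 to 3924 Gene IDs changed, 2061 to 2364 higher and 1275 to 1560 lower. Fitted alone, the 4 libraries gave 9619 changed, 4683 of them lower. With each pair summed to 1 sample, which assumes that the lone sample varies like those of other ages, 2150 changed, 1397 higher (65%) and 753 lower. Tested as transcripts, 11541 changed, 5986 higher and 5555 lower. Against a bound of 2-fold (glmTreat), which can only lower a count, 562 changed, 318 higher and 244 lower. Apart from that bound and the other unit, the cause was not tested. Fewer libraries did not always go with fewer calls, since the 4 libraries alone gave more than the main fit. Among the 21 pairs of ages, 16 against 14 dpf ranked 4th by calls, 14th with each pair fitted alone, and 1st by r and by the median absolute log2 fold change.

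Whether the replicate numbers pair libraries across ages is not stated. Deviations of same-numbered libraries from the age means correlated at -0.075 to 0.056 across Gene IDs over the 21 pairs of ages. No common deviation was thus seen, but a link that touched few Gene IDs would not show in this correlation. A replicate block in the fit gave 6033 changed Gene IDs, 3239 higher and 2794 lower, and 5989 of these were among the 6257. DESeq2's test gave 5278 and limma-voom 6650. The alternatives that sum or thin libraries, leave out whole ages or leave out the 13 and 14 dpf transcripts, the count of extremes by age, and the order of the pairs by median absolute log2 fold change, were chosen after seeing the data. Gene lists were not run for want of names.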

Other observations

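Gene IDs with more transcripts in the assembly were called more often. Of 2220 tested Gene IDs with a single transcript, 13.2% were higher and 12.6% lower at 16 dpf, and of 1816 with 16 or more, 21.6% were higher and 22.3% lower. Their median levels also differed, at 4.75 CPM and 52.5 CPM, and the part of level in this was not tested. Transcripts whose Gene ID mixes letters and digits, which entered no comparison, held 0.372% and 0.351% of the counts at 16 dpf, against 0.576% and 0.577% at 14 dpf.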
